A study of Mus musculus with 4 samples.

Results

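Synaptic vesicle release depends on a small set of presynaptic proteins, and 10 genes that encode 3 families of them are described here among the 28193 genes counted by fosTRAP-seq. They are the complexins *Cplx1*, *Cplx2* and *Cplx3*, the RIMs *Rims1*, *Rims2*, *Rims3* and *Rims4*, and the Munc13 genes *Unc13a*, *Unc13b* and *Unc13c*. The members were selected on measured values, since *Cplx2* and *Rims4* had been seen to rise in these same libraries and the other members were added by family name. The differences between the groups are therefore given for them as a description. Where the calls of a fit over all genes are counted among them, that fit used the same contrast, and the counts are no independent test of the members. All 10 genes had more than 5 counts in every library, and none was lost to that filter.

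Munc13 proteins open the SNARE protein syntaxin so that vesicles can become ready for fusion, a step known as priming. RIM proteins sit at the active zone, the release site of the presynaptic membrane, where the long forms bind the vesicle GTPase Rab3, Munc13 and calcium channels. Complexins bind the assembled SNARE complex and act with synaptotagmin, the calcium sensor, to hold back and then promote fusion. CA1 pyramidal neurons carry these mRNAs in their cell bodies, while the release sites lie on their axons.

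fosTRAP-seq reads the mRNA bound to HA-tagged ribosomes (RiboTag, a tagged copy of the large-subunit protein Rpl22) of neurons that switched on *Fos* during a tagging window. The labels give male mice, the genotype cFos-Cre:Ribotag and dorsal hippocampus as the source, whereas the methods of the study describe C57BL/6J males of 3 to 5 months whose dorsal CA1 received viral vectors carrying a Fos-driven inducible Cre and a Cre-dependent HA-Rpl22. Mice of both groups carried the same vectors, received 4-hydroxytamoxifen at ZT 2 of day 0 and were kept awake for 5 h on that day, so tagged neurons of both groups were those active in that first bout. On day 7 the SD mice went through another 5 h of sleep deprivation by gentle handling and the NSD mice were left undisturbed, and tissue was taken at ZT 5. Each library holds the pooled CA1 of 5 mice, with 2 libraries from 10 mice per group, and libraries numbered 1 and 2 belong to batches 1 and 2 in the labels. A standard deviation (s.d.) of a group is thus a spread between 2 pools.

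The libraries held 153511705 to 195910235 counts. Expression is given in CPM, the count per 1e6 counts of a library after TMM scaling. *Arc*, an immediate early gene, stood at 199 and 233 CPM in NSD and at 386 and 426 in SD, while *Fos* overlapped between groups (271 and 513 against 336 and 375). Markers of CA1 pyramidal cells summed to 6008 to 6522 CPM over 7 genes in the 4 libraries. Most of that sum came from *Camk2a* (4090 to 4379), which, like *Slc17a7* (693 to 808), is not particular to CA1. *Wfs1* had 390 and 441 CPM in NSD and 279 and 355 in SD, and *Fibcd1* had 185 and 217 against 150 and 166. Of the 7 CA1 markers, 3 had both SD libraries below both NSD libraries and 1 had both above. Those of other cells were also present, with sums of 31.6 to 40.4 CPM for dentate granule cells (3 genes), 64.2 to 74.5 for CA2 (4 genes), 19.1 to 20.4 for CA3 (3 genes), 759 to 838 for interneurons (7 genes), 414 to 463 for astrocytes (5 genes), 1403 to 1694 for oligodendrocytes (5 genes), 54.8 to 71.9 for microglia (5 genes) and 18.6 to 47.1 for endothelial cells (5 genes). Of the 43 markers tested, edgeR called 0, with 11 at an unadjusted p under 0.05, and 10 were called with a batch term and 7 by DESeq2. No marker was at 0 in all libraries. The summed endothelial level was lower in both SD libraries (27.9 and 18.6) than in both NSD libraries (33.8 and 47.1), and its part in the results was not tested. In bulk RNA of this kind, fewer cells of a type and less RNA per cell cannot be told apart.

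Every gene that passed the filter was fitted with the quasi-likelihood test of edgeR, SD against NSD, and was called at a Benjamini-Hochberg adjusted p under 0.05 with a fold change over 1.2. Of the 10 members, 2 were called higher (*Cplx2* and *Rims4*), where 0.77% of the 22338 genes tested were called higher, and 0 were called lower, where 2.33% of all genes were. Without adjustment, 6 members had a p under 0.05 with a positive sign, as did 6.86% of all genes, and 0 with a negative one, as did 12.2%. When the batch number entered the fit as a block, pairing libraries of the same number, 5 members were called higher (*Cplx2*, *Rims1*, *Rims3*, *Rims4* and *Unc13c*), against 2.99% of all genes, and 0 lower, against 8.47%. The same 5 were called higher by DESeq2, against 3.12%, and 0 lower, against 6.03%. Neither *Cplx2* nor *Rims4* was called under edgeR's own low-count filter, filterByExpr, a fit that called 1 gene higher and 0 lower in all, while their log2 fold changes were 0.66 and 0.45 there. In that fit 5 members had an unadjusted p under 0.05 with a fold change over 1.2 and a positive sign, as did 838 of 24323 genes. All members are protein-coding. With protein-coding genes alone in the fit, 2 members were called higher and 0 lower, as were 51 and 39 of 15551 genes. In CPM the lower SD library exceeded the higher NSD library in 7 of 10 members, as it did in 22% of all genes tested. Because this contrast chose the members, nothing is read from these counts. The median log2 fold change over the members was 0.26, beside -0.016 over all genes tested.

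**Figure D1:**
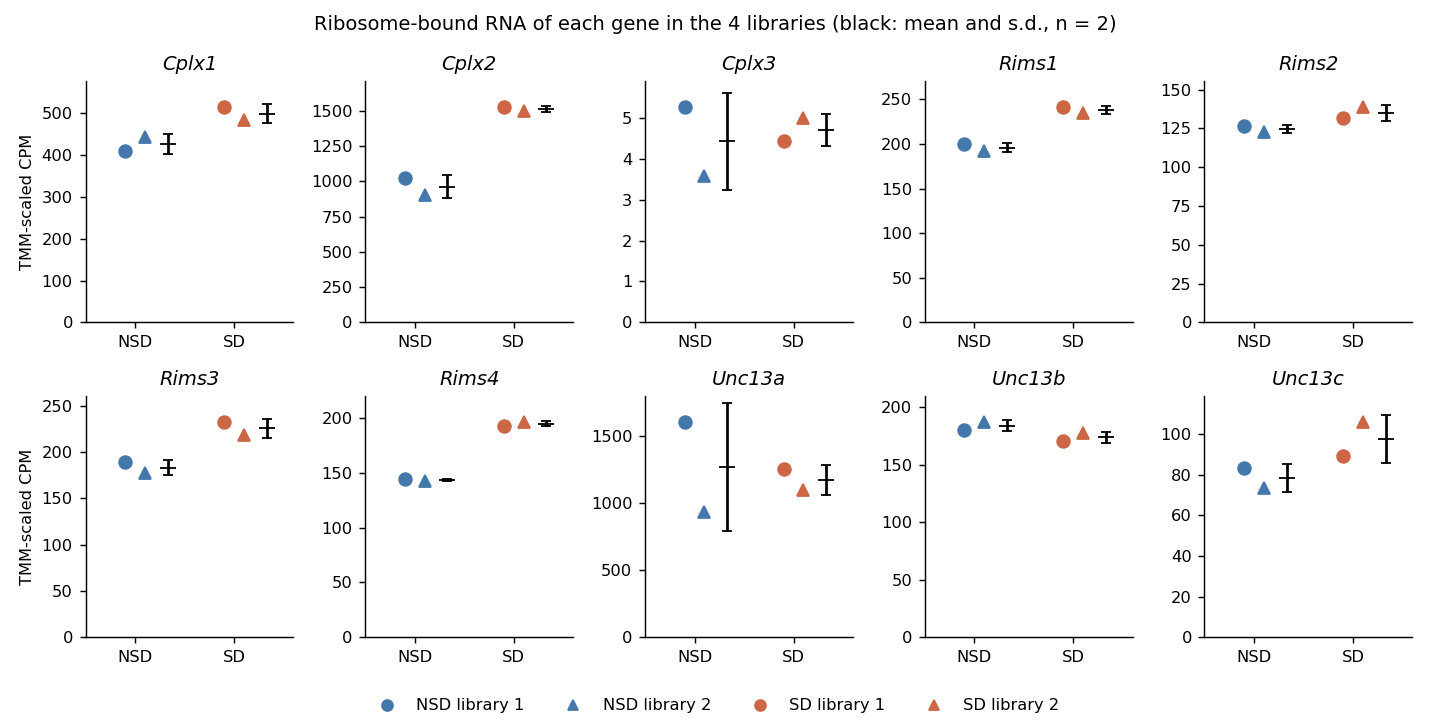
TMM-scaled CPM (y axis, from 0) of each of the 10 genes in the 2 NSD libraries (blue) and the 2 SD libraries (red), with circles for library 1, triangles for library 2, and the mean with its s.d. in black (n = 2). The groups are well apart for Cplx2 and Rims4, while Unc13a spans 934 to 1609 CPM within NSD alone.

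Promoters were read for 8 members from RefSeq sequences on the build GRCm38.p6, each with 250 bases before and 50 after the RefSeq start. These starts were not compared with those of the counted gene models on GRCm39, so a window may belong to a different start of the gene. Those of *Rims2* and *Rims4* were not analysed here. Motifs known from activity-regulated promoters, and the TATA box, were searched on both strands, each on its own. CRE and AP-1 share their outer letters, but neither contains the other. The full CRE (TGACGTCA, bound by CREB) was in 0 of the 8 windows and in 1.79% of all 32851 promoters in the table. AP-1 (TGANTCA, bound by Fos and Jun) was in 0 of 8 and in 7.81% of all, and TATAAA in 0 of 8 and in 13.6% of all. The EGR core (GCGNGGGCG) was in 2 of 8, *Cplx1* and *Unc13a*, and in 5.55% of all. The *Cplx1* match began 17 bases after the start and that of *Unc13a* 25 bases before it. The 100 bases before the start are shown for *Cplx2* (chr13:54302456-54302555, plus strand), the member with the largest difference, for *Rims3* (chr4:120854699-120854798, plus strand), a RIM higher in SD in both batches, and for *Unc13a* (chr8:71671758-71671857, minus strand), which holds the EGR core in capitals.
Cplx2: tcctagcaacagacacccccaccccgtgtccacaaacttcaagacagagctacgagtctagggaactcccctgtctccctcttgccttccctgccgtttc
Rims3: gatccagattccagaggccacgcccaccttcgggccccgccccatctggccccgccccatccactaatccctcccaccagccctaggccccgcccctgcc
Unc13a: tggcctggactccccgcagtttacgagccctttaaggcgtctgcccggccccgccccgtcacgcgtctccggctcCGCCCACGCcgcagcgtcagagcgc
The *Cplx2* window held 9 CpG steps and 53.3% G and C, beside medians of 7 and 52.7% over all promoters, and *Rims3* had 11 and 62.3% and *Unc13a* had 27 and 61.3%. *Rims1* had 26 CpG steps and *Cplx1* 24, and *Unc13c* had the fewest of the 8 at 6.

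Complexins were the most abundant of the 3 families once length was taken into account. *Cplx2* (ENSMUSG00000025867, GRCm39 chromosome 13 from 54519162 to 54531730 by the deposited table's gene model) encodes the main complexin of forebrain excitatory neurons. It stood at 1023 CPM in NSD library 1, 906 in NSD library 2, 1529.5 in SD library 1 and 1498 in SD library 2. Both SD libraries were far above both NSD libraries, with means of 964 ± 83.2 in NSD and 1514 ± 22.6 in SD (s.d., n = 2 each). The log2 fold change was 0.65 (standard error 0.11), which is 1.57-fold, the largest of the 10 members. Within batches the log2 difference was 0.58 in batch 1 and 0.73 in batch 2.

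*Cplx1* (ENSMUSG00000033615, chromosome 5 from 108666420 to 108697890), which encodes the other major brain complexin, had 409.5 and 443 CPM in NSD and 516 and 484 in SD. Its groups did not overlap either, but the step was smaller, at a log2 fold change of 0.23 (standard error 0.088), and was larger in batch 1 (0.33) than in batch 2 (0.13). *Cplx1* is known from inhibitory neurons of the hippocampus, and the interneuron markers summed to 838 and 811 CPM in NSD and 828 and 759 in SD. The part of interneuron RNA in the level of *Cplx1* was not tested.
*Cplx3* (ENSMUSG00000039714, chromosome 9 from 57507275 to 57513564), a complexin known from retinal ribbon synapses, had 5.27 and 3.59 CPM in NSD and 4.43 and 4.99 in SD. The SD libraries lay between the NSD libraries. Its log2 fold change of 0.088 had a standard error of 0.20, and its sign differed between batch 1 (-0.25) and batch 2 (0.47). Dropping NSD library 1 gave 0.42, dropping NSD library 2 gave -0.16, and dropping SD library 1 or 2 gave 0.17 or 0.0095.

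The make-up of the complexin family differed between the groups as well, which restates the same counts. Levels between genes are compared as TPM, counts per kilobase of exon scaled to a common sum in each library. *Cplx2* held 64.6% of the complexin TPM in NSD library 1 and 60.0% in NSD library 2, and 68.5% and 69.4% in SD libraries 1 and 2. *Cplx1* held 34.9% and 39.6% in NSD and 31.2% and 30.2% in SD. *Cplx3* held between 0.320% and 0.536% in every library. The family as a whole summed to 2195 and 2040.3 TPM in NSD and 2968 and 2808 TPM in SD.

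RIM genes fall into a long pair and a short pair. The longest coding sequences of *Rims1* and *Rims2* in the annotation have 4998 and 4755 bases, and those of *Rims3* and *Rims4* have 939 and 822, since the short RIMs keep little more than the last C2 domain and lack the parts that bind Rab3 and Munc13. In both kinds each SD library was above each NSD library in CPM. *Rims4* (ENSMUSG00000035226, chromosome 2 from 163701671 to 163760603) had 144 and 143 CPM in NSD and 193 and 197 in SD. The replicate libraries were almost equal and the groups were well apart, at 143 ± 1.13 and 195 ± 2.44 (s.d., n = 2 each). The log2 fold change was 0.44 (standard error 0.069), or 1.36-fold, and was 0.42 and 0.46 within batches 1 and 2.
*Rims3* (ENSMUSG00000032890, chromosome 4 from 120712013 to 120753776) had 189 and 177 CPM in NSD and 233 and 218 in SD. Its groups were apart by more than the gap between replicates, with a log2 fold change of 0.30 (standard error 0.078) and 0.30 in each batch.

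*Rims1* (ENSMUSG00000041670, chromosome 1 from 22356475 to 22845203), the long RIM required for several forms of presynaptic plasticity, had 199.6 and 192 CPM in NSD and 242 and 235 in SD. The SD libraries were again both higher, by a log2 fold change of 0.28 (standard error 0.073), and the batches gave 0.28 and 0.29. *Rims2* (ENSMUSG00000037386, chromosome 15 from 39061656 to 39547768), the other long RIM, had the smallest difference of the 4, with 126 and 123 CPM in NSD and 132 and 139 in SD. Its groups did not overlap in CPM, but in TPM SD library 1 (63.3) was just below NSD library 1 (63.5). The log2 fold change of *Rims2* was 0.12 with a standard error of 0.069, and batch 1 gave only 0.057 against 0.18 in batch 2.
In TPM, *Rims4* was the largest part of the RIM family, with 33.1% and 33.9% in NSD and 35.8% and 36.9% in SD. *Rims3* held 28.2% to 29.8% over the 4 libraries, *Rims1* 24.4% to 25.4% and *Rims2* 9.84% to 11.8%. The RIM sum was 541 and 509 TPM in NSD and 643 and 621 TPM in SD.

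**Figure D2:**
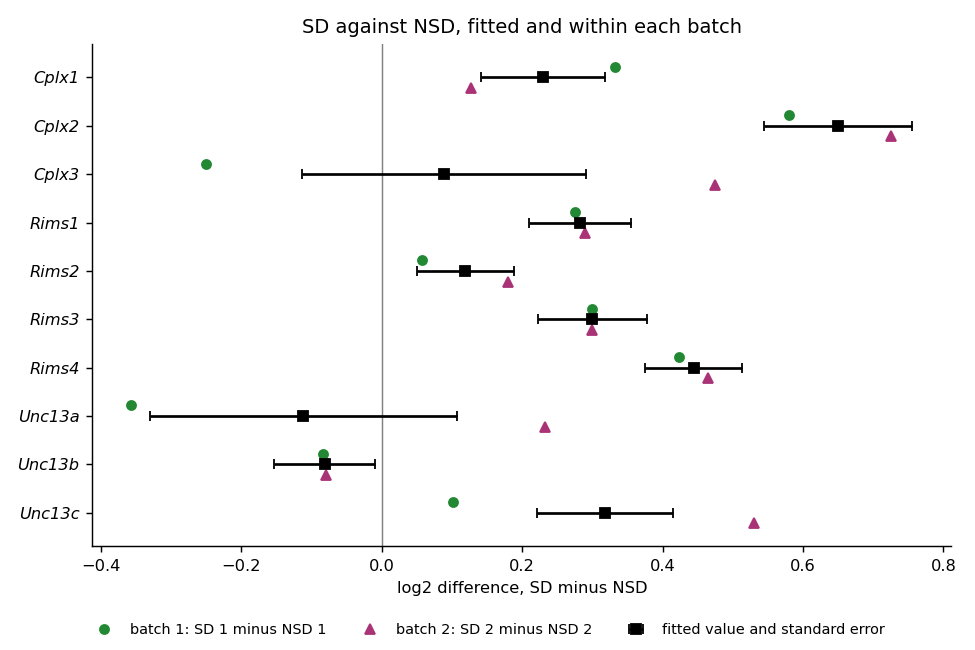
Log2 difference between SD and NSD (x axis) for the 10 genes, with the fitted value and its standard error (black squares), the difference within batch 1 (green circles) and within batch 2 (purple triangles). The 2 batches nearly coincide for Rims1, Rims3, Rims4 and Unc13b, and lie on opposite sides of 0 for Cplx3 and Unc13a.

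Munc13 genes showed no common direction. *Unc13a* (ENSMUSG00000034799, chromosome 8 from 72077061 to 72124401) encodes Munc13-1, the main priming factor of excitatory synapses in the forebrain. It had 1609 CPM in NSD library 1 and 934 in NSD library 2, and 1257 and 1097 in SD libraries 1 and 2. Both SD values fell inside the NSD range, and the s.d. in NSD was 478 on a mean of 1272. The log2 fold change of -0.11 (standard error 0.22) turned on the NSD library used. It was 0.36 once NSD library 1 was dropped and -0.45 once NSD library 2 was, and it was -0.21 or -0.0081 once SD library 1 or 2 was dropped. The block gave -0.062. Within batches it was -0.36 and 0.23.
*Unc13b* (ENSMUSG00000028456, chromosome 4 from 43058953 to 43264871), which encodes Munc13-2, was the only member with both SD libraries below both NSD libraries, an order found in 27.5% of all genes tested. It had 181 and 187 CPM in NSD and 171 and 177 in SD, a log2 fold change of -0.081 (standard error 0.072) with -0.084 and -0.079 in the batches. The difference was about the size of its standard error, and was -0.053 with SD library 1 dropped and also with no count filter.
*Unc13c* (ENSMUSG00000062151, chromosome 9 from 73386704 to 73876248), which encodes Munc13-3, a form best known from the cerebellum, had 83.3 and 73.4 CPM in NSD and 89.3 and 106 in SD. Its groups did not overlap, with a log2 fold change of 0.32 (standard error 0.097). Most of that difference came from batch 2 (0.53, against 0.10 in batch 1), and the value ranged from 0.20 without SD library 2 to 0.44 without NSD library 1. edgeR called it when SD library 1 was left out, at 0.44.
*Unc13a* made up 77.3% to 85.0% of the Munc13 TPM in the 4 libraries, *Unc13c* 8.04% to 13.6% and *Unc13b* 6.93% to 11.3%. The family sum followed *Unc13a*, at 783 and 486 TPM in NSD and 613 and 552 TPM in SD.

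Ordered by mean TPM over the 4 libraries, *Cplx2* came first at 1656 ± 396 (s.d. over the libraries of both groups, n = 4, so that it includes the difference between them) and ranked 39 among 27962 genes with a length. *Cplx1* followed at 837 ± 67.9 (rank 114) and *Unc13a* at 492 ± 126 (rank 282). The ranges of these 3 genes did not overlap. *Rims4* stood at 203 ± 31.2, *Rims3* at 169 ± 18.4 and *Rims1* at 144 ± 13.7. The ranges of *Rims4* and *Rims3* overlapped, as did those of *Rims3* and *Rims1*, although *Rims4* was above *Rims3*, and *Rims3* above *Rims1*, in each library. *Unc13c* (64.3 ± 8.66) and *Rims2* (63.1 ± 2.25) could not be separated by their spread, and their order depended on the group. *Rims2* was above *Unc13c* in both NSD libraries (63.5 and 60.0 TPM against 63.0 and 54.2) and below it in both SD libraries (63.3 and 65.4 TPM against 64.8 and 75.3). *Unc13b* came next at 52.1 ± 2.93, within reach of *Unc13c* in range, and *Cplx3* last at 9.88 ± 1.66 (rank 10294). Taking the longest transcript in place of the exon union put *Rims3* (153 TPM) just above *Rims4* (150.4 TPM) and *Unc13b* (59.5 TPM) above *Unc13c* (47.7 TPM).

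**Figure D3:**
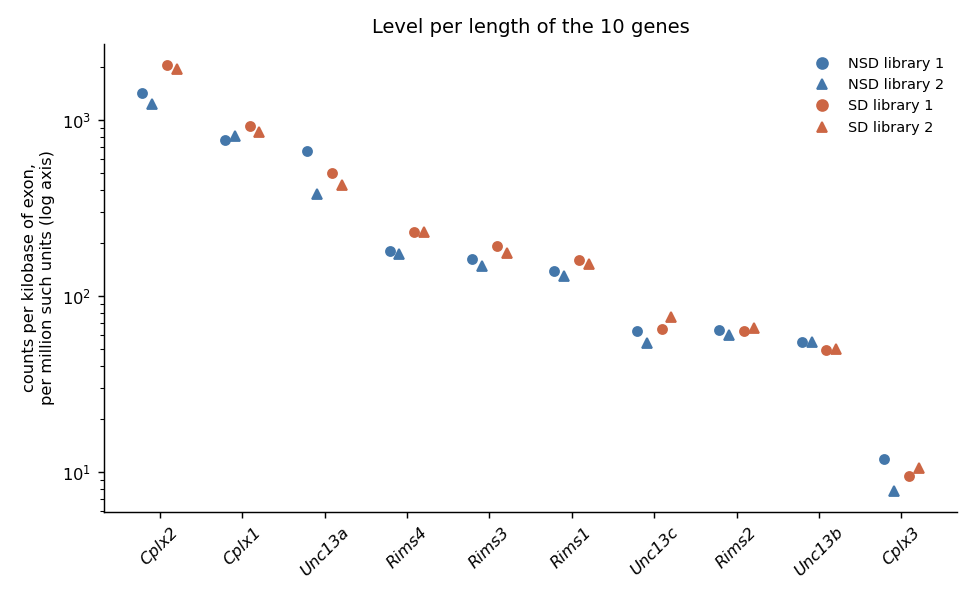
Level per length (TPM, log y axis) of the 10 genes ordered by their mean, with the 2 NSD libraries in blue and the 2 SD libraries in red, circles for library 1 and triangles for library 2. The 10 genes span from 7.81 to 2033 TPM, with Cplx2 at the top in every library and Cplx3 at the bottom.

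Counting could blur single genes where exons overlap or reads are shared. *Cplx2*, *Rims4* and *Unc13a* had exactly whole counts, with no tolerance, in all 4 libraries, and the other 7 genes had a fractional count in at least 1 library. For *Cplx3* the fraction was minute, as in its count of 874.001 in NSD library 1. *Rims4* shares 495 exon bases with *Kcnk15* on the opposite strand, a gene with 0.0287% of its count, and *Unc13a* shares 2758 with *Colgalt1* on the opposite strand, a gene with 1.80% of its count, and reads of such pairs can be told apart only if the counting used the strand that the library kit keeps. No other member shared exon bases with a counted gene.

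Other genes of the release machinery were taken from a list of 52 grouped by family and complex, which was written with earlier results of these data known. Of these, 51 were tested, and *Cplx4* was not, with at most 0.0955 CPM in a library. edgeR called 3 of the 51 higher and 1 lower, where 0.77% and 2.33% of all genes tested were called. The block gave 3 and 1, against 2.99% and 8.47% of all genes, and DESeq2 gave 4 and 1, against 3.12% and 6.03%, the additional gene being *Rph3a*, a Rab3 effector, named here after its values were seen. In all, 37 had a positive log2 fold change and 14 a negative one, with a median of 0.077 beside the -0.016 of all genes.
*Rab3c*, one of the Rab3 GTPases on synaptic vesicles, had 842 and 881 CPM in NSD and 1245 and 1182 in SD, with no overlap between groups. The fitted log2 change was 0.49, with a standard error of 0.096 and an edgeR adjusted p of 0.0400.
*Syt2*, a fast calcium sensor for release, had 139 and 169 CPM in NSD and 217 and 208 in SD. Its SD libraries were both higher, by 0.46 on the log2 scale with a standard error of 0.099 (edgeR adjusted p = 0.0482). *Syt1*, the classical sensor for fast release in forebrain neurons, had 1423 and 1617 CPM in NSD and 1541 and 1591 in SD, with overlap and a log2 change of 0.043 (edgeR adjusted p = 0.893) that became -0.017 when NSD library 1 was dropped and 0.14 when NSD library 2 was.
*Fbxl20* encodes the F-box protein SCRAPPER, part of a ubiquitin ligase that targets RIM1 for degradation. It had 83.0 and 81.9 CPM in NSD and 106 and 99.2 in SD, again without overlap, which was a log2 change of 0.32 with a standard error of 0.066 (edgeR adjusted p = 0.0476).
*Cacnb2*, a beta subunit of voltage-gated calcium channels, was the 1 gene called lower. It had 63.2 and 60.4 CPM in NSD and 50.1 and 49.9 in SD, a log2 change of -0.31 with a standard error of 0.065 (edgeR adjusted p = 0.0480). It shares 385 exon bases with *Gm10848* and 239 with *Gm13269*, both on the opposite strand and with 0.409% and 0.0312% of its count.
In the main fit these calls stood close to the threshold. With the block the edgeR adjusted p of the 4 genes ran from 0.00117 to 0.00331, and by DESeq2 from 1.87e-10 to 0.00788. None of the 4 was called when all 28193 genes entered the fit, under edgeR's filterByExpr, or among protein-coding genes alone, with edgeR adjusted p values from 0.0502 to 0.0842. Their log2 changes stayed of similar size there, for *Rab3c* at 0.52, 0.50 and 0.47 and for *Cacnb2* at -0.28, -0.30 and -0.33. At an unadjusted p under 0.05 with the fold change threshold, 4 release genes were higher and 1 lower with all genes in the fit (1079 and 2710 of the 28193 genes), 3 and 1 under filterByExpr (838 and 2650 of 24323), and 3 and 2 among protein-coding genes (536 and 862 of 15551). Leaving out NSD library 1 also left none called, in a fit that called 124 genes higher and 78 lower of 22338. At an unadjusted p under 0.05 with the fold change threshold, 5 release genes were then higher and 1 lower, as were 1110 and 1446 of all genes. Without NSD library 2 the calls were 1 higher and 1 lower (229 and 446 over all genes), without SD library 1 they were 1 and 0 (292 and 1955), and without SD library 2 they were 3 and 0 (308 and 775).

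The core fusion proteins were not called. The SNARE *Snap25*, with the highest CPM of its group, had 868 and 1008 CPM in NSD and 997 and 1039 in SD, a log2 change of 0.12 (edgeR adjusted p = 0.631), which became 0.044 when NSD library 1 was dropped and 0.23 when NSD library 2 was. The 5 SNARE genes ran from -0.015 to 0.18. Of the 7 SNARE regulators, 0 were called by edgeR, by DESeq2 or with the block, and 0 had an unadjusted p under 0.05. *Bsn*, the active zone scaffold Bassoon, was at 0.18 (edgeR adjusted p = 0.463), or 0.12 with SD library 2 dropped. All 11 active zone genes were above 0, from 0.034 to 0.32, beside a median of -0.016 over all genes tested. Of them 1, *Fbxl20*, was called, and no other had an edgeR unadjusted p under 0.05. Of the 10 calcium channel subunits, 7 were below 0, among them *Cacna1e* at -0.090 (edgeR adjusted p = 0.684), which encodes the pore of R-type channels and had the highest CPM of that group. The dense-core vesicle priming factor *Cadps* was at -0.072 (edgeR adjusted p = 0.700) and moved to -0.035 with SD library 1 dropped and to -0.037 with NSD library 1 dropped.

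**Figure D4:**
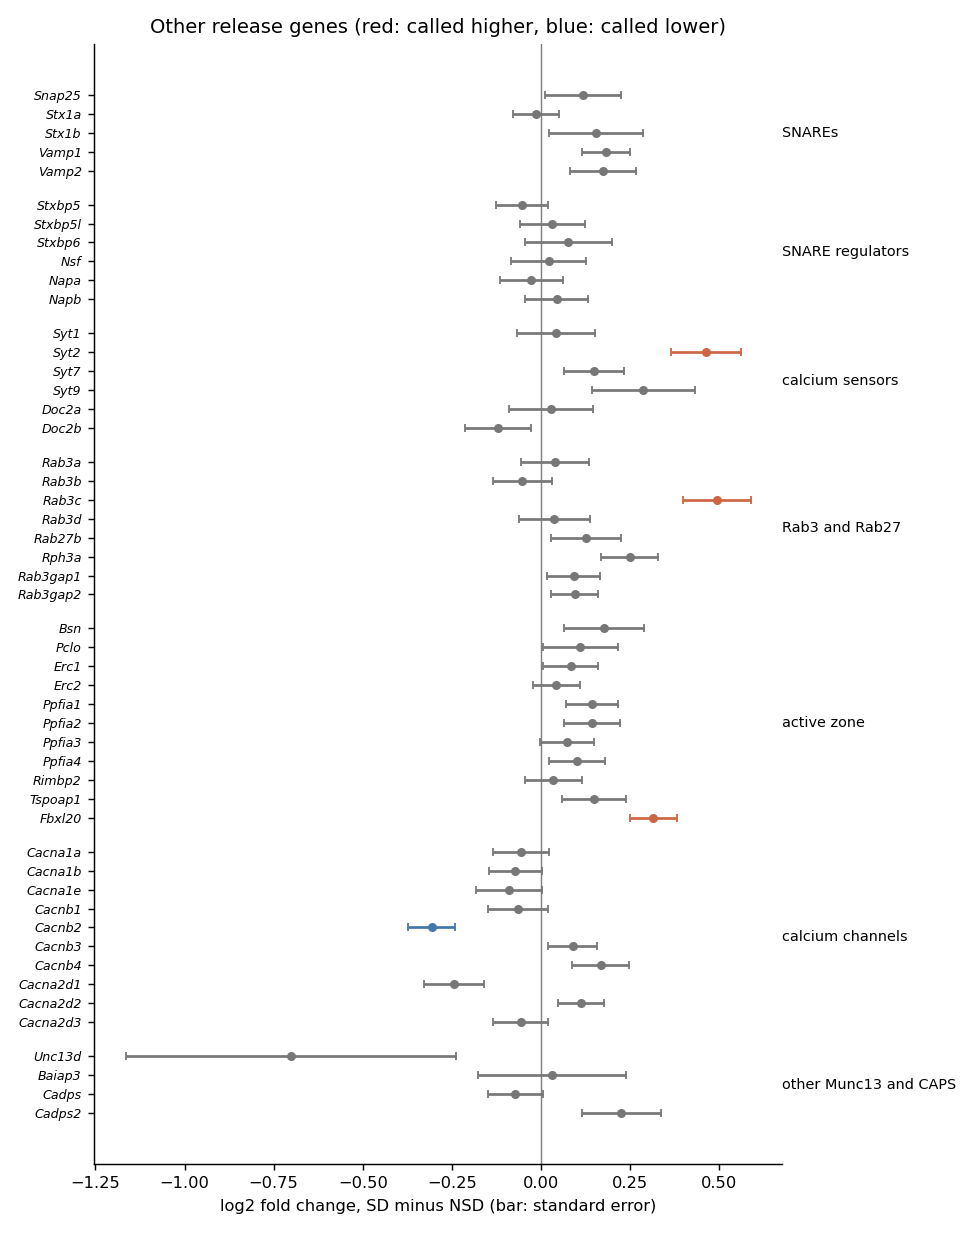
Log2 fold change of SD against NSD (x axis) with its standard error for the other release genes tested and reported here, grouped by role; red marks the 3 called higher, blue the 1 called lower and grey the rest. Rab3c, Syt2 and Fbxl20 stand to the right.

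The expression profile of *Cplx2* over the 4 libraries was set beside those of 15541 other protein-coding genes, by the Euclidean distance between log2 CPM values centred on each gene's mean. The nearest were *Zswim9* (distance 0.043), *Sox11* (0.043), *2210418O10Rik* (0.078), *Syce2* (0.086) and *Zfp973* (0.089), where the median distance was 0.69. *Sox11*, a transcription factor of young neurons, had 33.4 and 30.1 CPM in NSD and 51.0 and 48.1 in SD, nearly the same proportions as *Cplx2*. With 4 libraries such nearness is a description only.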

How the data were processed

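Sequencing covered 4 fosTRAP-seq libraries, 2 NSD and 2 SD. The authors trimmed and aligned reads with STAR and deposited estimated counts on mm39 (GRCm39), which Partek Flow assigned to genes by expectation maximization, not normalized. Counts were rounded, and 22338 genes exceeding 5 counts in all libraries were tested in edgeR 4.0.16 under R 4.3.3. The quasi-likelihood model held condition alone, with TMM factors and Benjamini-Hochberg adjustment, and was checked on simulated counts. DESeq2 1.42.0, other filters and scalings, protein-coding genes alone and each library left out in turn were alternatives. Library numbers match the batch numbers of the labels, which pair the samples (correlation of paired deviations 0.178), and a block fit used them. Per-library log2 values used a prior count of 2. Exon lengths came from GENCODE vM39 on GRCm39 and covered 99.9% of counts, and the rest was left out of TPM. The library kit was a stranded one for total RNA, and whether the counting used strand is not given in the sources used here.

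The members, lists and tests were chosen with earlier results of these data known. Genes named were all members, called release genes, the gene of highest mean CPM in each release group, the 5 profiles nearest to Cplx2, and Arc and Fos. The values of 1 gene of the release list are not reported here. The total counts of 153511705 to 195910235 per library leave counting error small, so precision rests on 2 pools per group.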

Additional observations from a re-analysis of the deposited data

How the results depend on the processing

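Every member kept its sign under every alternative, except *Unc13a* and *Cplx3*. With a library left out, *Unc13a* ran from -0.45 (without NSD library 2) to 0.36 (without NSD library 1) and *Cplx3* from -0.16 (without NSD library 2) to 0.42 (without NSD library 1). *Syt1* also turned, from -0.017 (without NSD library 1) to 0.14 (without NSD library 2). *Cplx2* and *Rims4* were called in all fits except filterByExpr.

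Over all genes edgeR called 172 higher and 520 lower. The other counts were 669 and 1294 with DESeq2, 668 and 1891 with the replicate block, 50 and 80 with no count filter, 51 and 39 among protein-coding genes only, and 1 and 0 with filterByExpr, where 838 and 2650 had an unadjusted p under 0.05 with the fold change. With 1 library left out they ran from 124 (without NSD library 1) to 308 (without SD library 2) higher and from 78 (without NSD library 1) to 1955 (without SD library 1) lower, the lone library of a group being taken to vary like the rest. Members called higher, 2 in the main analysis, were 5 with DESeq2, 5 with the replicate block and 0 with filterByExpr (5 unadjusted), and 2 to 3 with a library left out, the third being *Unc13c* without SD library 1. The block changed no call of another release gene. Release genes called were 0 higher and 0 lower with filterByExpr, with no count filter and among protein-coding genes only, 3 and 0 with DESeq2's size factors in edgeR, and 0 to 3 higher and 0 to 1 lower with a library left out. Their median log2 fold change was 0.098 with DESeq2 and with its size factors, 0.10 with no count filter, 0.055 among protein-coding genes only, and 0.067 to 0.11 with a library left out. Dropping the fold change threshold changed no count. The cause was not tested.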
